A study of Mus musculus with 6 samples.

Results

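Heparan sulfate is a long sugar chain carried by proteoglycans on the cell surface and in the matrix, and the 10 genes described here encode enzymes that build and modify it: the exostosin family members Ext1, Ext2, Extl1, Extl2 and Extl3, and the modifying enzymes Ndst1, Ndst2, Glce, Hs2st1 and Hs6st1. They were taken by name, and they are 10 of the 34741 gene names on the array and 10 of the 18567 genes tested. Of their 14 probes 13 could be tested, with at least 1 probe for each gene, and the tested probes were well above background on all 6 arrays. The study asked which genes change in expression together with promoter DNA methylation in liver tumors, and Extl1 was chosen in it partly from these arrays. RNA of 3 normal livers and 3 liver tumors was labelled with the dye Cy3 and read on 1 array of the type SurePrint G3 Mouse GE for each tissue. All tissues came from male C3H/HeN mice, a strain prone to spontaneous liver tumors, of 74 to 75 weeks. The mice belonged to the control group of a study across generations and ate a standard diet, and the labels name no agent for either tissue. According to the methods, the tumors were macroscopic and carried a Ha-ras mutation, so tumors without this mutation are not represented. Whether a tumor and a normal liver came from the same mouse was not stated in the sources used here, and nothing in the labels says how the 3 samples of a group relate, so p-values measure the spread between these samples.

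The chain is made in the Golgi apparatus on a short linker of sugars attached to a core protein. Extl3 adds the first N-acetylglucosamine that commits the linker to heparan sulfate, and the complex of Ext1 and Ext2 then lengthens the chain. Ndst1 and Ndst2 replace acetyl by sulfate groups on the nitrogen of glucosamine, Glce turns glucuronic into iduronic acid, and Hs2st1 and Hs6st1 add sulfate at the 2-O and 6-O positions. The sulfated stretches bind growth factors and morphogens, and in the liver heparan sulfate on hepatocytes also takes part in clearing lipoprotein remnants.

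Extl1 lies on chromosome 4 of GRCm38.p6 (chr4:134356373-134372547) and Hs2st1 on chromosome 3 (chr3:144429701-144570216), both on the minus strand. Their promoter windows from RefSeq, 250 bases before to 50 bases after the start of the gene, are shown because these were the members with the largest fall and the largest rise and because CG, the dinucleotide that is methylated in mammals, is what the study's question turns on. The windows are chr4:134372498-134372797 and chr3:144570167-144570466, written 5′ to 3′ on the minus strand, with each CG in capitals. CG reads the same on both strands.
Extl1: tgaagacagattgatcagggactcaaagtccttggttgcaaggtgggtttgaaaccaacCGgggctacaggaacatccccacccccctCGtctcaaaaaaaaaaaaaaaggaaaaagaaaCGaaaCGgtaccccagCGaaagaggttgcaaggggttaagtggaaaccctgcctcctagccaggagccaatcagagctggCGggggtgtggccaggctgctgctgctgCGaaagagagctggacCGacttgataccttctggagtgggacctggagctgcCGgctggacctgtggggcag
Hs2st1: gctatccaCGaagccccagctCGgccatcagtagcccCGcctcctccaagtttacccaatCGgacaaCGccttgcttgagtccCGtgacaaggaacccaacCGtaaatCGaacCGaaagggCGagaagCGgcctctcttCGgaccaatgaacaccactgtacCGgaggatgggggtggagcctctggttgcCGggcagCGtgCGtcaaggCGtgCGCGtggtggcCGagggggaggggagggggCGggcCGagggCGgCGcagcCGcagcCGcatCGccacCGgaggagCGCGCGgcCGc
The window of Extl1 held 9 CG and that of Hs2st1 held 32. The median of 32851 windows of the same length was 7, and 94.57% of them held at least 1. As few as 9 or fewer stood in 56.53% of windows, and 32 or more in 9.522%. Among the other members with a window, Ext2 had 18 CG, Ndst2 20, Glce 30 and Hs6st1 47, while Extl2 had 34 and 6 in its 2 windows. No methylation was measured in the files used here, so the windows describe the genes and not their state in these tissues. The region whose methylation the study followed for Extl1 lies downstream of the start, outside the window shown.

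On these arrays an expression value is the signal of a probe divided by the 75th percentile of its array, so values of a gene can be compared between arrays, but not values of different probes. The 75th percentile was 124 to 177 intensity units in the normal livers and 171 to 183 in the tumors, 44.7% to 48.9% of spots were well above background, and the number of saturated spots was 0. All arrays of normal liver were on slide 1 and all of tumor on slide 2, with a median local background of 42 to 45 and of 22 to 23, and the effects of slide and of tissue cannot be told apart. Arrays of the same tissue correlated at 0.980 to 0.992 and arrays of different tissues at 0.914 to 0.950. The hepatocyte markers were strongly expressed in both groups, with Alb (albumin) at a mean of 2273 in normal livers and 2169 in tumors and Hnf4a, a hepatocyte transcription factor, at 186 and 207.

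Among the exostosins, Extl1 was lower in tumors, and limma called none of the other 4, that is, none reached an adjusted p under 0.05. Extl1, an enzyme of the family that can add N-acetylglucosamine to a growing chain, had expression values of 1.55, 1.70 and 0.963 in normal livers 1, 2 and 3 and of 0.472, 0.666 and 0.523 in tumors 1, 2 and 3. Every tumor was below every normal liver, and normal liver 3 was the lowest of its group. The mean was 1.41 ± 0.39 (SD, n = 3) in normal livers and 0.554 ± 0.101 (SD, n = 3) in tumors. On the log2 scale the difference was -1.32 with a standard error of 0.25 and a 95% interval from -1.91 to -0.72. Because the study chose this gene partly for its fall on the same arrays, its values are a description, and its place among the calls counted below is no independent evidence of the fall. By real-time PCR in a larger set of samples, the study also reported lower Extl1 in tumors. It reported no difference in Extl1 between tumors with and without the Ha-ras mutation. On the arrays the fall was 1.57 without normal liver 3 and 0.88 after normexp background correction, which lifts dim signals. Its size of over 2-fold thus depended on how the background was treated. In bulk tissue, fewer cells of a type and less RNA per cell cannot be told apart, here and below.

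Extl3, which starts the chain, had values of 13.8, 14.5 and 18.3 in normal livers and 16.0, 14.4 and 14.0 in tumors. The groups overlapped, and the log2 difference was -0.06 with a 95% interval from -0.41 to 0.28 (limma's adjusted p = 0.770). Extl2, which can add a single N-acetyl sugar to the linker and is thought to stop rather than extend a chain, read 3.02, 3.53 and 2.82 in normal livers and 2.75, 3.43 and 3.47 in tumors. Its groups also overlapped, with a log2 difference of 0.04 and an interval from -0.31 to 0.40 (limma's adjusted p = 0.852). A 2-fold change of either gene thus lay outside its interval.

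Ext1, one partner of the polymerase, had values of 3.18, 3.07 and 2.56 in normal livers and 2.73, 3.27 and 3.32 in tumors, a log2 difference of 0.08 with an interval from -0.25 to 0.42 (limma's adjusted p = 0.679). A second probe of Ext1 gave -0.09 and was not called either. Ext2, the other partner, had values of 0.423, 0.400 and 0.353 in normal livers and 0.240, 0.341 and 0.374 in tumors. Tumor 3 stood within the normal range and tumor 1 was the lowest of all 6 arrays, and the log2 difference of -0.32 had an interval from -0.78 to 0.13 (limma's adjusted p = 0.233). Neither subunit of the polymerase therefore differed beyond the spread between arrays. The position of Extl2 is chr3:116007449-116029017, of Extl3 chr14:65052059-65149899, of Ext1 chr15:53068261-53346183 and of Ext2 chr2:93695631-93822568.

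Relative to the mean log2 value of the other 4 exostosins on the same array, which cancels any scaling of an array, the difference of Extl1 between tumors and normal livers was -1.25. This value follows from the differences above and is a description only.

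**Figure D1:**
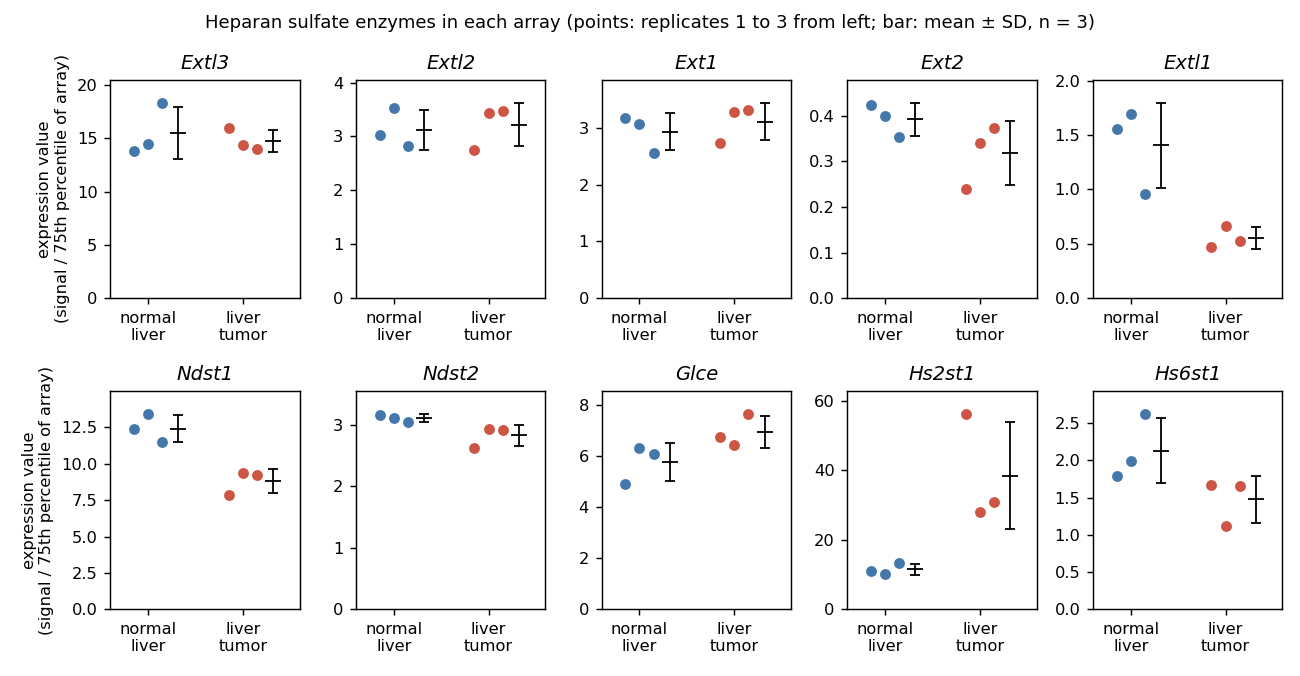
Expression values (signal divided by the 75th percentile of the array, linear scale from 0) of the 10 enzymes in the 3 normal livers (blue) and 3 liver tumors (red), with bars for mean ± SD. The groups of Extl1, Ndst1, Ndst2, Glce, Hs2st1 and Hs6st1 do not overlap, and the 3 tumors of Hs2st1 at 28.1 to 56.1 lie furthest above their normal livers.

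Hs2st1, which like Extl1 had a single probe on the array, rose more than any other member. It encodes the sulfotransferase that places sulfate at the 2-O position, mostly of iduronic acid, a group that many fibroblast growth factors bind. Its values were 11.2, 10.1 and 13.2 in normal livers and 56.1, 28.1 and 31.0 in tumors, so the lowest tumor was above the highest normal liver by a wide margin and tumor 1 was the highest. The mean was 11.5 ± 1.59 (SD, n = 3) in normal livers and 38.4 ± 15.4 (SD, n = 3) in tumors. The log2 difference was 1.68 with a standard error of 0.28 and a 95% interval from 1.02 to 2.34 (limma's adjusted p = 0.00652), or 3.20-fold. Without tumor 1 the log2 difference was 1.37 (limma's adjusted p = 0.00340), and leaving out any other array gave 1.59 to 1.87. The call was lost in the methods' t-test on linear values in its paired form, before and after adjustment, and in its unpaired form after adjustment. An exact two-sided permutation test of 3 against 3 arrays cannot give less than 0.1, which is the value for this gene.

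The other sulfotransferase of the O positions measured here went the other way in its values. Hs6st1, which adds the 6-O sulfate, read 1.78, 1.99 and 2.62 in normal livers and 1.67, 1.11 and 1.65 in tumors. Every tumor was below every normal liver, but by little for tumors 1 and 3, and the log2 difference of -0.53 with an interval from -1.06 to -0.007 did not pass the adjustment over all probes (limma's adjusted p = 0.108). On none of the 6 arrays was a second probe of Hs6st1 well above background. The positions are chr1:36068400-36106446 for Hs6st1 and chr9:62057244-62122609 for Glce.

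Ndst1, an N-deacetylase and N-sulfotransferase that hepatocytes use for clearing lipoprotein remnants, fell. Its values were 12.4, 13.4 and 11.5 in normal livers and 7.86, 9.35 and 9.24 in tumors, with all tumors below all normal livers. The mean was 12.4 ± 0.95 (SD, n = 3) in normal livers and 8.82 ± 0.83 (SD, n = 3) in tumors. The log2 difference was -0.50 with a standard error of 0.12 and an interval from -0.80 to -0.20 (limma's adjusted p = 0.0253). Of the other 2 probes of this gene, which lies on chromosome 18, 1 was called at -0.49 (limma's adjusted p = 0.0297) and the other gave -0.30 (limma's adjusted p = 0.211). The call was lost with normexp (-0.37), with quantile normalization (-0.39), with spike-in scaling (-0.19), without a filter on dim probes and, at adjusted p from 0.0507 to 0.0893, on leaving out normal liver 1 or 2 or tumor 1 or 2.

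Ndst2, its relative, had values of 3.16, 3.11 and 3.04 in normal livers and 2.62, 2.93 and 2.92 in tumors. The groups were apart, but the log2 difference of -0.14 with an interval from -0.39 to 0.11 was not called (limma's adjusted p = 0.350), and with spike-in scaling it turned to 0.17. Glce, the epimerase that makes iduronic acid, had values of 4.91, 6.32 and 6.10 in normal livers and 6.76, 6.44 and 7.64 in tumors. Its lowest tumor was barely above the highest normal liver, and the log2 difference of 0.27 with an interval from -0.07 to 0.61 was not called (limma's adjusted p = 0.187). Ndst2 lies at chr14:20723730-20734570.

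Relative to the mean log2 value of Ndst1, Ndst2, Glce and Hs6st1 on the same array, the difference of Hs2st1 between tumors and normal livers was 1.90. This too follows from the differences of the single genes and is a description that no scaling of an array changes.

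In all, 3 of the 10 enzymes were called, 1 higher and 2 lower in tumors, or 2 of the 9 besides Extl1. Of their 13 tested probes 4 were called, 1 higher and 3 lower, against 33.1% of all probes, with 12.5% higher and 20.6% lower. Over all genes tested the share called was 34.2%, with 13.1% higher and 21.0% lower, so the number of calls among the enzymes was near the background. In 6 of 10 the groups did not overlap, against 51.8% of all genes, again near the background. The median log2 difference of the 10 was -0.10, and that of all genes tested was -0.13. The criteria of the study's methods were a ratio of means of 2 or more, a group mean above 1.0 and an unadjusted p under 0.05. Extl1 and Hs2st1 were the 2 members that passed with an unpaired form of the methods' t-test, against 9.14% of genes. The study shortlisted Extl1 by such criteria on these arrays, so its passing was fixed in advance. Of the 9 besides it, Hs2st1 alone passed, which is near that share. With the paired form, which the methods state, neither passed. The study's own p-value for Extl1 was under 0.05 and close to that of the unpaired form here. Not passing the paired form therefore does not mean that Extl1 failed the study's own criteria. Scaling by the E1A spike-in probes moved the median of all probes tested by 0.31, from -0.13 to 0.18, and on that scale only Hs2st1, at 1.99, and Extl1, at -1.01, were called among the members. Relative to the 75th percentile, the median log2 signal of these spike-in probes ranged from 2.05 to 2.68 among the normal livers alone. That range is wider than the shift, so this scaling added spread between arrays of the same tissue, which limits its calls here and below.

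**Figure D2:**
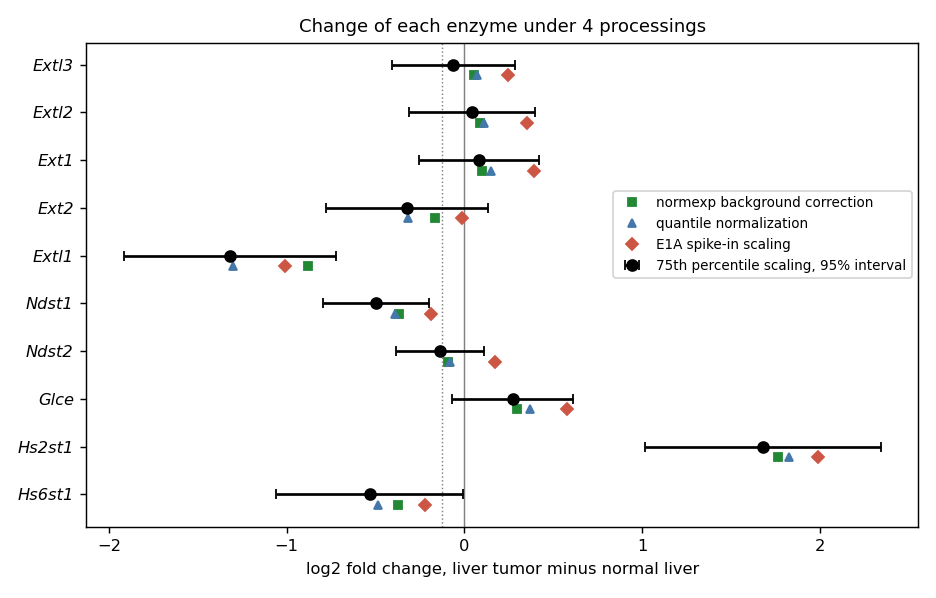
Log2 difference between liver tumors and normal livers for each enzyme: black points with 95% intervals for scaling to the 75th percentile, coloured symbols for normexp, quantile normalization and spike-in scaling, and a dotted line at the median of all genes tested (-0.13). Extl1 and Hs2st1 keep their direction and stay apart from the others in all 4, while Ndst2 and Extl3 change sign with the scaling.

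Tumor 1 was the highest or the lowest of the 3 tumors for 9 of the 10 enzymes, lowest for 6 and highest for 3. Over 18563 genes it was at 1 end for 72.9%, tumor 3 for 69.4% and tumor 2 for 57.7%, and among the enzymes tumors 2 and 3 were at an end for 6 and 5. In Hs2st1 the value of tumor 1 was 56.1 and those of the other tumors were 28.1 and 31.0.

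Some markers of other cells differed between the groups, mostly those of macrophages and of stellate cells and fibroblasts. Over all genes, limma called 21.0% lower and 13.1% higher. Of 8 macrophage markers 6 were lower in tumors (limma), and their summed value ranged from 101 to 173 in normal livers and from 51.4 to 84.7 in tumors. Of 9 markers of stellate cells and fibroblasts 5 were lower and 2 higher, with sums of 88.0 to 105 and 28.5 to 49.1, most of it from Dcn (decorin). Of 8 endothelial markers 2 were lower, near the share over all genes, with sums of 106 to 121 and 82.7 to 91.8. Of 8 hepatocyte markers 3 were lower and 1 higher, with sums of 5819 to 6575 and 5956 to 6130. Of 6 cholangiocyte markers 4 were tested, with a lowest adjusted p of 0.165 in limma (Cftr), and of 8 lymphocyte markers also 4, with a lowest adjusted p of 0.0565 in limma (Cd79a). The sums were 2.33 to 2.93 and 1.89 to 2.19 for cholangiocytes, and 7.67 to 9.39 and 7.62 to 9.84 for lymphocytes. Mast cells carry heparin, the most sulfated form of the chain, but on none of the 6 arrays were Cpa3, Cma1, Mcpt4 and Ms4a2 well above background, and the summed value of the 6 markers was 1.28 to 1.42 in normal livers and 0.655 to 1.06 in tumors. The part of the macrophage, endothelial and stellate cell markers in the changes of Extl1, Ndst1 and Hs2st1 was not tested.

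The genes that supply, carry and remove heparan sulfate were examined in the same fit. In 6 further lists of 70 genes 51 were tested, and 25 of them were called, 11 higher and 14 lower, which is 49.0% against the 34.2% of all genes. Their median log2 difference was -0.03. Among the higher genes, Gpc3, Gpc6 and Slc26a2 passed the filter only through the tumors. These counts describe the lists, and no test of a list was made.

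Sulf2, an endosulfatase that takes 6-O sulfate off finished chains outside the cell, had values of 2.62, 2.95 and 2.87 in normal livers and 0.712, 0.951 and 0.651 in tumors, with a wide gap between the groups. It fell by 1.88 on the log2 scale with a standard error of 0.17 (limma's adjusted p = 0.000799). Sulf1, its relative, was well above background in 2 of 3 normal livers and 1 of 3 tumors and was not tested. Of the further sulfotransferases of the list, Hs3st6, which adds sulfate at the 3-O position, was tested, at -0.54 (limma's adjusted p = 0.0690). The others, Ndst3 and Ndst4 among them, did not pass the filter.

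For the linker, 7 genes were tested and 1 rose and 1 fell, against 13.1% and 21.0% of all genes, with a median of 0.05. Pxylp1, the phosphatase that removes phosphate from the xylose of the linker, rose by 0.86 with a standard error of 0.20 (limma's adjusted p = 0.0206). B3gat3, which adds the glucuronic acid that completes the linker, fell by 0.56 with a standard error of 0.11 (limma's adjusted p = 0.0128). The fall of B3gat3 was not called with spike-in scaling, at -0.25, or without normal liver 2, and the rise of Pxylp1 not without normal liver 2 or 3 or tumor 1 or 3. The xylosyltransferases Xylt1 and Xylt2, the galactosyltransferases B4galt7 and B3galt6 and the xylose kinase Fam20b were not called, although B3galt6 stood at 0.62 (limma's adjusted p = 0.0645).

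Of 11 genes for sugar and sulfate donors, 4 fell and 1 rose, against 21.0% and 13.1% of all genes, with a median of -0.03. Ugdh, which makes the UDP-glucuronic acid used for the chain, had values of 55.5, 67.6 and 45.1 in normal livers and 12.9, 32.6 and 25.0 in tumors, a log2 difference of -1.33 (limma's adjusted p = 0.0297). On leaving out 1 array its call was lost except without tumor 1 or 2. Slc26a1, a sulfate transporter of the hepatocyte membrane, fell by 1.21 (limma's adjusted p = 0.00748). The other genes that fell were Papss2, which makes the sulfate donor PAPS, at -0.63, and Bpnt1, which clears the nucleotide left after PAPS has given up its sulfate, at -1.04. Slc26a2, another sulfate transporter, was not well above background on any normal liver and was at least 1.43-fold higher in tumors (limma's adjusted p = 0.0100). It passed the filter only through the tumors, where it was high. With normexp its log2 difference was 0.11 and was not called.

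Of 11 tested core proteins 4 rose and 2 fell, against 13.1% of all genes higher and 21.0% lower. Gpc3 and Gpc6, counted among the rises, passed the filter only through the tumors, where they were high. The filter thus favoured their place in this count, which is a description only. The 4 that rose were glypicans, which are anchored to the membrane by a lipid, although the call of Gpc4 was lost in many settings, and the 2 that fell were syndecans, which span the membrane. Gpc3, a glypican of fetal liver, was not well above background on any normal liver and had values of 24.2, 24.4 and 10.3 in tumors, at least 159-fold higher (limma's adjusted p = 0.000358). This fold is a lower bound, from the tumor mean against the higher of the detection level and the signal of the probe on each normal array. A second probe of Gpc3 was not well above background on any of the 6 arrays.

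Gpc1 had values of 8.38, 7.59 and 7.12 in normal livers and 22.7, 18.8 and 14.6 in tumors, a log2 difference of 1.26 with a standard error of 0.18 (limma's adjusted p = 0.00421). Gpc6 was well above background in 1 of 3 normal livers and rose from between 0.103 and 0.172 to between 0.496 and 0.635 (limma's adjusted p = 0.00163). Gpc4 rose by 0.41 (limma's adjusted p = 0.0403) with a second probe at 0.02, and its call was lost with normexp, with spike-in scaling, and without normal liver 1 or 2 or any 1 tumor. Gpc2 and Gpc5 did not pass the filter. The rises of Gpc1, Gpc3 and Gpc6 were thus larger than that of Gpc4, whose probes differed.

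The syndecans Sdc2 and Sdc3 fell by 0.58 (limma's adjusted p = 0.0157) and by 0.90 (limma's adjusted p = 0.0295). Sdc1, the syndecan most tied to lipoprotein uptake in hepatocytes, was at -0.04 and Sdc4 at -0.07, neither was called (limma's adjusted p = 0.849 and 0.730), and both were above 0 with normexp, quantile and spike-in scaling. With spike-in scaling neither fall of Sdc2 or Sdc3 was called, at -0.27 and -0.60, and that of Sdc2 was not called without normal liver 2, nor that of Sdc3 without normal liver 1 or 3 or tumor 2 or 3. Of the matrix core proteins, Hspg2 (perlecan) was at 0.33 (limma's adjusted p = 0.0543) and Agrn (agrin) at -0.06 (limma's adjusted p = 0.749). Col18a1, whose chain carries heparan sulfate in basement membranes, was at -0.24 with 1 probe (limma's adjusted p = 0.146) and at -0.68 with the other (limma's adjusted p = 0.00873).

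**Figure D3:**
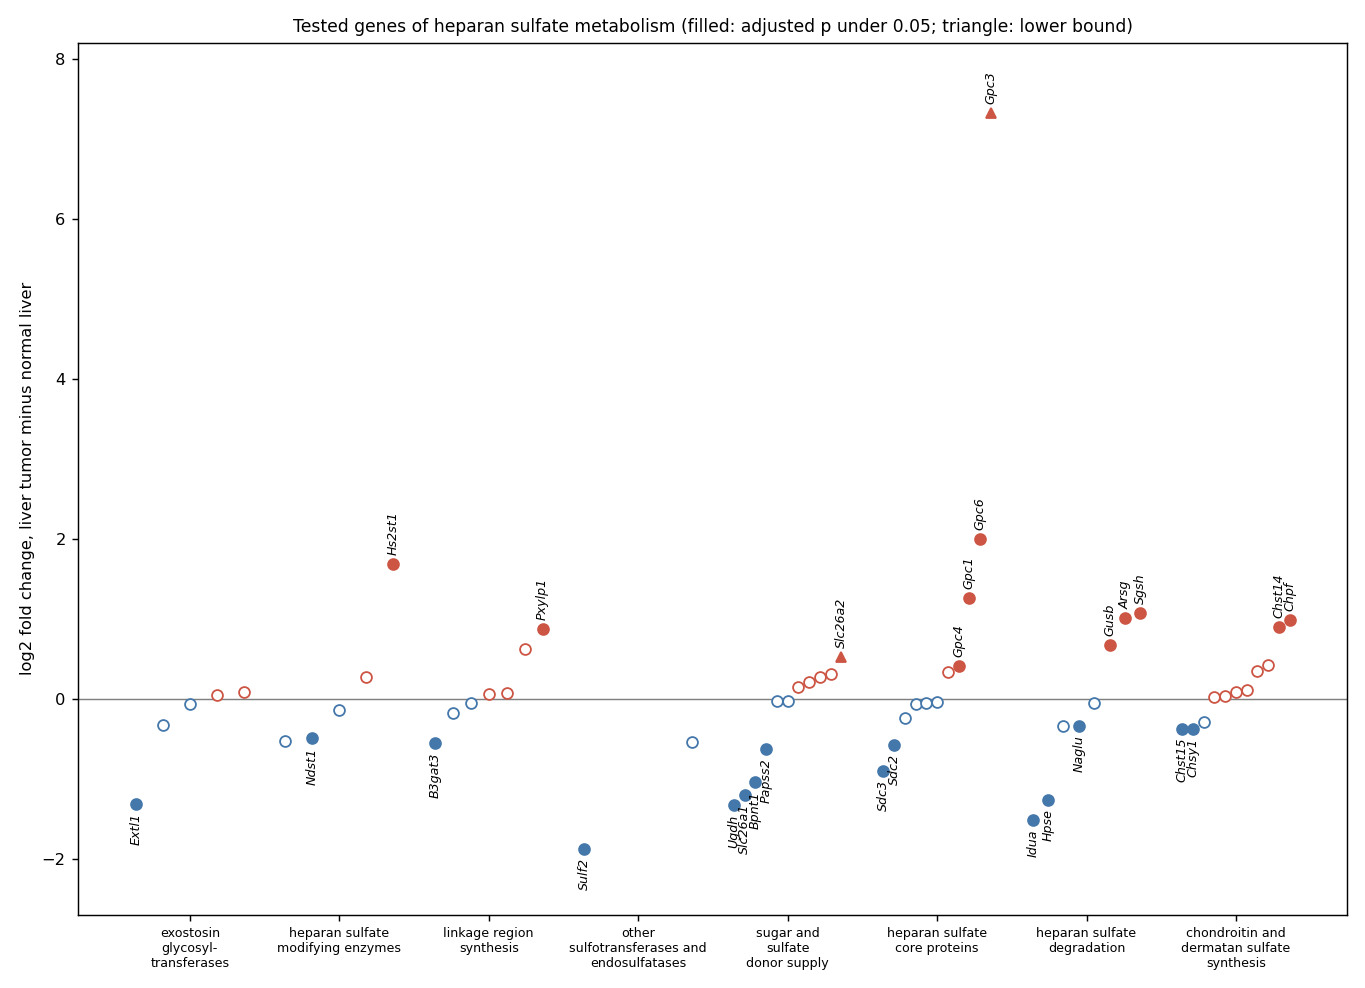
Log2 difference between liver tumors and normal livers for tested genes in 8 groups, the 10 enzymes in the first pair of groups and the other lists to the right; filled points are called by limma at an adjusted p under 0.05, open points are not, and triangles are lower bounds for Gpc3 and Slc26a2. The tested glypicans lie above 0, Sdc2 and Sdc3 below it, and Sdc1 and Sdc4 close to it, turning above it with normexp, quantile and spike-in scaling, and Sulf2 is the lowest point of all. Gpc3, Gpc6 and Slc26a2 passed the filter only through the tumors.

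Of 9 tested genes that break the chain down, limma called 4 lower and 3 higher, against 21.0% and 13.1% of all genes, with a median of -0.34. Idua and Sgsh are counted here by 1 of their 2 probes, and their directions are uncertain. Hpse (heparanase), which cuts the chain inside, had values of 1.08, 1.19 and 1.36 in normal livers and 0.394, 0.609 and 0.524 in tumors, a log2 difference of -1.27 (limma's adjusted p = 0.00478). Arsg, a lysosomal sulfatase for 3-O sulfate, rose by 1.01 (limma's adjusted p = 0.00458). For Idua, which removes iduronic acid, the main probe fell by 1.52 (limma's adjusted p = 0.00831) and a second was at 0.45 (limma's adjusted p = 0.0578). For Sgsh, an N-sulfatase, the main probe rose by 1.08 (limma's adjusted p = 0.0107) and a second was at -0.32 (limma's adjusted p = 0.0624). The probes of these 2 genes thus had opposite signs.

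Chondroitin and dermatan sulfate are sister chains that start from the same linker. Of 11 tested genes of their synthesis 2 rose and 2 fell, against 13.1% and 21.0% of all genes, with a median of 0.09. Chpf, a polymerising factor, rose by 0.98 (limma's adjusted p = 0.0325) and Chst14, a dermatan sulfotransferase, by 0.89 (limma's adjusted p = 0.00322). Chst15 and the chondroitin synthase Chsy1 fell by 0.38 each (limma's adjusted p = 0.0419 and 0.0476). Of these, Chst14 was called with every way of scaling the arrays, whereas Chst15 and Chsy1 were not called with normexp, with spike-in scaling or on leaving out any 1 array. Chpf was not called on leaving out any 1 array other than tumor 2.

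The genes with the pattern most like that of Extl1 were sought among 16472 genes well above background on all 6 arrays. The measure was the root mean square difference of log2 values, each gene centred on its own mean over the 6 arrays. The closest were 1700097N02Rik at 0.10, Ugt3a1, a glycosyltransferase of the UDP type, at 0.13, Spsb4 at 0.14 and 9530036O11Rik at 0.14, together with a noncoding probe without a gene name at 0.14.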

How the data were processed

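Expression was measured on 6 Agilent arrays, 3 of normal liver and 3 of liver tumor by the labels. The authors deposited Feature Extraction output (version 10.7.3.1 in the file headers, 12.0.3.1 in the processing notes), with a processed signal intensity after background subtraction and detrending, and a table of the ratio of that signal to each array's 75th percentile. The intensities were used, the table was an alternative, and 0 columns were unassigned.

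Each processed signal was divided by the 75th percentile of all spots of its array and put on the log2 scale, without control and outlier spots, and spots of a probe were averaged. A probe was tested if it was well above background throughout at least 1 group, which held for 24901 of 55681 probes. These were fitted with limma 3.58.1 (lmFit, then eBayes; R 4.3.3). P-values were two-sided and adjusted over all tested probes by Benjamini-Hochberg, and a probe was called under 0.05. A gene stood by its tested probe with the highest mean log2 value. Probes were named through RefSeq (GRCm38.p6) by accession for 27235, symbol for 3581 and synonym for 565, and 24300 kept the name of the design. Promoter windows were found for 7 of the 10 members, and none for Ext1, Extl3 and Ndst1. Tables and figures were made in Python 3.11.15 (pandas 2.3.3; numpy 2.4.6; scipy 1.17.1; matplotlib 3.10.9).

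The members and the lists were chosen with earlier results of these data known. Genes named were all members, up to 2 called genes that rose most and up to 2 that fell most in each list, all core proteins, Sulf1, Sulf2 and the 5 genes most like Extl1. Bpnt1, Papss2, Hs3st6, the uncalled linker genes and single markers were named after their values were seen. The 6 lists covered the linker, other sulfotransferases and endosulfatases, donors, core proteins, degradation, and chondroitin and dermatan sulfate, and 7 lists held 53 cell type markers. Where a probe was well above background on no array of a group, its fold is a lower bound. The methods' t-test was run on ratios, unpaired where the study's criteria were applied, although the methods state a paired form, which was an alternative. The others were normexp with an offset of 50, quantile normalization, E1A spike-in scaling, the percentile without control spots, other filters, eBayes with a trend, an unmoderated test, a mean over probes, the replicate number as a block, and leaving out each array. The number of arrays limits the precision. The single value of 1 gene of the degradation list is not reported here and is left out of the plot. In simulated data over 24889 probes, 147 of 200 changed probes were called with 9 false calls, and 49.3% of those changed 2-fold were found. In the data 8239 probes were called, so the adjustment was stricter in the simulation. Its shares therefore do not carry over to the data.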

Additional observations from a re-analysis of the deposited data

How the results depend on the processing

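With 3 arrays a group on different slides, the call of a small change such as that of Ndst1 was lost in several settings. Dim probes gave bounds or no value. Changes under 2-fold were called as well: of 6346 called genes, 2719 had changed by 2-fold or more. Over all probes 8239 were called. The count was 4647 with spike-in scaling, where 70.2% were higher in tumors against 37.8%, 4674 without a filter on dim probes, 5263 with the methods' unpaired t-test after Benjamini-Hochberg adjustment and 22 with its paired form, a replicate block. Leaving out 1 array gave 4954 to 7171, the lowest without normal liver 2. Quantile normalization made 46.8% of calls higher. No probe count was made for the mean of a gene's probes. Of the 10 members 3 were called, and 2 to 3 on leaving out 1 array. The methods' t-test called 1 when paired at an unadjusted p under 0.05, 1 when unpaired and adjusted, and 0 when paired and adjusted. Extl1, at -1.34 (p of 0.0538, 0.0743 and 0.172), and Hs2st1, at 1.74 (0.0961, 0.106 and 0.221), lost their calls in these 3 and were called in the other 18 of 21 alternatives, and Ndst1 was called in 12. The fall of Extl1 was 1.16 to 1.57 on leaving out 1 array. Of the 51 further genes 25 were called, 16 with spike-in scaling (68.8% higher against 44.0%), 14 without a filter, 0 with the paired and adjusted t-test (20 at an unadjusted p under 0.05) and 15 to 19 on leaving out 1 array, with 15 without normal liver 2. Quantile normalization made 54.2% of them higher.

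Whether replicate numbers pair the samples could not be decided from the values. Deviations of same-numbered arrays correlated at 0.07, 0.13 and 0.05, and those of differently numbered arrays at -0.139 to 0.055. With the number as a block, 7021 probes, 3 members and 20 further genes were called. Values not called in limma changed sign in these settings: Extl3 with normexp (0.054), quantile (0.069) and spike-in scaling (0.25), Ndst2 with spike-in scaling (0.17), and Ext1 with the mean of its probes (-0.000573). Sdc1 gave 0.069, 0.094 and 0.26, and Sdc4 0.045, 0.060 and 0.24, with normexp, quantile and spike-in scaling. Agrn gave 0.095 with quantile and 0.25 with spike-in scaling, and Col18a1 0.070 with spike-in scaling. On leaving out 1 array, Extl2 ranged from -0.030 to 0.15 (below 0 without normal liver 3, tumor 2 or tumor 3), Extl3 from -0.14 to 0.063 and Ext1 from -0.012 to 0.17 (both crossing 0 without normal liver 3), and Sdc1 from -0.15 to 0.079 (above 0 without normal liver 2 or tumor 1). The cause was not tested. Of the other single-gene values, 563 kept direction and side of the threshold, 116 lost a call and 11 gained one.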
